A study of Mus musculus with 12 samples.

Results

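Transcripts of 9 enzymes of hepatic amino acid catabolism (Tat, Hpd, Hgd, Fah, Sds, Hal, Prodh, Oat and Got1) were followed in primary cultured mouse hepatocytes exposed to benzbromarone (BBR), oleic acid (OA) or both. The genes were found by their symbols, and all 9 were present among the 22471 features of each library. RNA sequencing had been performed on 12 libraries, 3 in each of 4 groups: control (Con), OA (ConOA), BBR and BBR+OA (BBROA). All groups were hepatocytes of young male C57BL/6J mice, obtained by collagenase perfusion and Percoll centrifugation and cultured in serum-containing medium, without any genetic change. BBR is a uric acid-lowering drug that inhibits the renal urate transporter URAT1, and it was given at a single concentration. OA is a monounsaturated fatty acid, supplied with albumin, that loads hepatocytes with lipid and served as an in vitro model of steatosis. The submitters called the replicates biological, but whether they were separate mice or separate wells of a single preparation was not given, so the p-values below measure the spread between these libraries, which may be technical.

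The liver is the main site where surplus amino acids are broken down. Their nitrogen is passed on by transamination or released as ammonia and leaves as urea, and their carbon enters gluconeogenesis, the citric acid cycle or ketone body synthesis. Many of these enzymes are classically induced in liver by fasting, glucagon, glucocorticoids and protein-rich diets. The enzymes of tyrosine degradation include, in this order, tyrosine aminotransferase (Tat), 4-hydroxyphenylpyruvate dioxygenase (Hpd), homogentisate dioxygenase (Hgd) and fumarylacetoacetate hydrolase (Fah). Serine dehydratase (Sds) turns serine into pyruvate, and histidine ammonia-lyase (Hal) begins histidine breakdown. Proline dehydrogenase (Prodh) and ornithine aminotransferase (Oat) lead from proline and ornithine to glutamate, and the cytosolic aspartate aminotransferase Got1 joins aspartate to glutamate and takes part in the malate-aspartate shuttle.

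All 9 genes were protein-coding in GENCODE release M21 (GRCm38). Tat (ENSMUSG00000001670) lies on chr8:109990437-109999803 on the plus strand and Hpd (ENSMUSG00000029445) on chr5:123171807-123182727 on the minus strand. Hgd (ENSMUSG00000022821) is found at chr16:37580153-37632020 on the plus strand and Fah (ENSMUSG00000030630) at chr7:84585159-84606722 on the minus strand. Sds (ENSMUSG00000029597) occupies chr5:120476526-120483932 and Hal (ENSMUSG00000020017) chr10:93488768-93519304, both on the plus strand. Prodh (ENSMUSG00000003526) spans chr16:18060357-18090203, Oat (ENSMUSG00000030934) chr7:132557478-132576398 and Got1 (ENSMUSG00000025190) chr19:43499752-43524605, all 3 on the minus strand. Counts are over whole genes, exons and untranslated regions together. Sds shared 501 exonic bases with genes on the opposite strand, Plbd2 and the antisense gene Gm15690. Since the sources do not say whether counting used the strand, reads of Sds and of these genes cannot be told apart there, and its values are uncertain. The other 8 genes shared no exonic bases with another gene.

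Promoter sequences of the 5 genes on which the results turn are shown because Tat, Fah and Got1 were called higher with OA, and Tat, Hgd and Prodh lower with BBR. The call of Tat with BBR depended on single libraries. They are from RefSeq (GRCm38.p6), 300 bases each, from 250 bases before the annotated start to 50 bases after it, 5′ to 3′ on the strand of the gene. The windows are chr8:109990186-109990485 (Tat, plus), chr7:84605893-84606192 (Fah, minus), chr19:43524556-43524855 (Got1, minus), chr16:37579903-37580202 (Hgd, plus) and chr16:18089141-18089440 (Prodh, minus). Capitals mark matches, on either strand, to any of 8 motifs.
Tat: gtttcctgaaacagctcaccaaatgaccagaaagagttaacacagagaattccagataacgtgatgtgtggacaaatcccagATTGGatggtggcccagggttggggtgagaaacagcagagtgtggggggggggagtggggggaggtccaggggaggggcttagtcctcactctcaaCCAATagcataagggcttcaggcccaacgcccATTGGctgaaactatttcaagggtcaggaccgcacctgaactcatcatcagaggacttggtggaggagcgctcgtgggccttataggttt
Fah: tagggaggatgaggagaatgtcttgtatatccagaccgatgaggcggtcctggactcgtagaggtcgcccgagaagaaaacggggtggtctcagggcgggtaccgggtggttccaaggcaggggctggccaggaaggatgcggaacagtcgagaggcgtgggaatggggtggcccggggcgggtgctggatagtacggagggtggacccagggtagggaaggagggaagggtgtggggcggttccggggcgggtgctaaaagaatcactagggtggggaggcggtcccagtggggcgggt
Got1: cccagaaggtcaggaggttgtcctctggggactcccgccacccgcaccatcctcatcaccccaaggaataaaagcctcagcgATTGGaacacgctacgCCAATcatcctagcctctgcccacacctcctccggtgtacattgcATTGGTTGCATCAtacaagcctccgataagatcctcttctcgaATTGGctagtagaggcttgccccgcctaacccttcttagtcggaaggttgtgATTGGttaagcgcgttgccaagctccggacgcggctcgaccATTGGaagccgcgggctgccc
Hgd: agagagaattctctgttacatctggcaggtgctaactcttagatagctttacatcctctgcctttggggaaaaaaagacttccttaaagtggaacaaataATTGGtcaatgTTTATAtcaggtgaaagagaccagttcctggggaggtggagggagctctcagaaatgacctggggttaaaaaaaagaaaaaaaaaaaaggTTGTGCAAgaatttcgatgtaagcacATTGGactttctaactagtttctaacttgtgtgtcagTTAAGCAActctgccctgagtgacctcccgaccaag
Prodh: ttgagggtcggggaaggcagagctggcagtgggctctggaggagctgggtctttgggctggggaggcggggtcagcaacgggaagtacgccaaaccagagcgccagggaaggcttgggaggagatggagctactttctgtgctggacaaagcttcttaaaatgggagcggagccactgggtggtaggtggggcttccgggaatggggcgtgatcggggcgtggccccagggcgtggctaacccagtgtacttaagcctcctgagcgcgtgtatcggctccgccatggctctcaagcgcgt

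The motifs searched, on both strands, were TATAAA (the core promoter box, in 13.6% of all 32851 promoters of this length), CCAAT (37.4%), TGACGTCA (cAMP response element, 1.79%), TGATGNAA (a composite of C/EBP and ATF sites, 3.97%), TTGCNNAA (C/EBP, 10.8%), CAAAGTCCA (HNF4, 0.475%), GTTAAT (HNF1, 7.1%) and AGAACA (glucocorticoid receptor, 19.0%). The table held promoters for 8 of the 9 genes, all except Sds. Tat had 3 CCAAT matches, at positions -168, -72 and -40 from the start site, where a position is the first base of the match on the gene's strand. Got1 had 6 CCAAT matches, between -168 and 30, and a TGATGNAA match at -102 that directly followed the CCAAT match at -107. Hgd had TATAAA at -139, CCAAT at -150 and -23, and TTGCNNAA at -49 and 15. Among the promoters not shown, Hal had TATAAA at -28, CCAAT at -64 and TTGCNNAA at -150, and Oat had CCAAT at -47 and -22. None of the 8 strings occurred in the windows of Fah, Prodh and Hpd. The windows of Fah and Prodh lie wholly inside the gene spans given above, whose 5′ ends are at 84606722 and 18090203. Sequence before those ends was not searched. Within the windows searched, no motif of this set was held by all of Tat, Fah and Got1, called higher with OA. Nor was any held by all of Tat, Hgd and Prodh, called lower with BBR. Tat and Got1 held CCAAT, a string found in 37.4% of promoters, and the Fah window did not. Tat and Hgd also both held CCAAT, and the Prodh window did not. Whether all genes of either set share a motif at the outer ends of Fah and Prodh was not tested.

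Library depth lay between 15485508 counts in BBR replicate 2 and 23668379 in control replicate 3, and 14732 to 15144 features had counts in a library. A floor of 3 counts corresponded to 0.127 to 0.194 CPM (counts scaled to a common library size, here with TMM factors, the trimmed mean of M-values). Of 8 hepatocyte markers, 7 were found in the files, and their summed level was 43400 to 44500 CPM in control, 46800 to 48700 in OA, 42200 to 43900 in BBR and 48500 to 50500 in BBR+OA libraries. The hepatocyte identity of the cultures was therefore visible in every library. The 10 Kupffer cell markers summed to 103 to 118 CPM in control, 103 to 118 in OA, 141 to 183 in BBR and 104 to 118 in BBR+OA libraries, with Cd68 the most abundant of them. The 7 cholangiocyte markers summed to 592 to 720, 243 to 273, 390 to 423 and 199 to 241 CPM in the same order, and most of this was Spp1, while Krt7 and Cftr were at 0 in the control libraries. The 8 endothelial markers summed to 56.4 to 72.7 and the 8 stellate cell markers to 26.2 to 31.1 CPM over all libraries.

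The levels of the 9 transcripts, compared per length on the deposited FPKM values (fragments scaled by transcript length and by library depth), differed widely. In control libraries Got1 was highest at 41.8 ± 1.82 FPKM (SD, n = 3), followed by Oat at 26.2 ± 2.47 and Fah at 25.3 ± 0.814, whose ranges overlapped. Hpd came next at 13.8 ± 1.78, then Prodh at 8.02 ± 0.699, Tat at 3.29 ± 0.482 and Hgd at 2.37 ± 0.557. Tat and Hgd were within the sum of their SDs of each other, although their ranges did not overlap (2.94 to 3.84 and 1.73 to 2.71 FPKM). Sds at 0.630 ± 0.0954 and Hal at 0.520 ± 0.115 were lowest and overlapped. With OA the places of Fah and Oat were exchanged: Fah reached 34.7 ± 1.07 FPKM in OA and 34.4 ± 1.37 in BBR+OA, above Oat at 27.6 ± 1.02 and 29.0 ± 3.13. Tat reached 6.69 ± 0.639 and 6.83 ± 1.23 and kept its place below Prodh, at 8.20 ± 0.242 and 9.16 ± 0.283. Sds and Hal exchanged places in BBR+OA, at 0.567 ± 0.285 and 0.607 ± 0.085, within their spread.

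**Figure D1:**
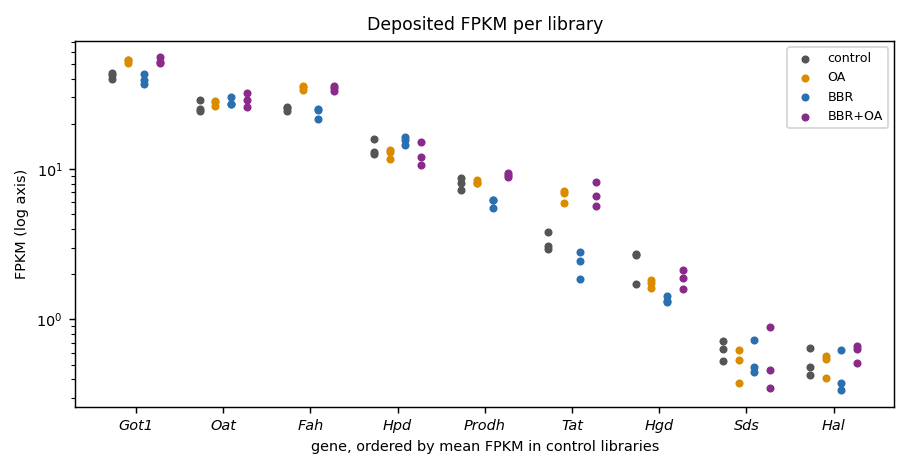
Deposited FPKM of the 9 genes in each library on a log axis, with genes ordered by their mean in the control libraries and 1 point per library coloured by group. Got1 lies highest in control (41.8 FPKM) and Hal lowest (0.520), and the points of Tat and Fah in both groups with OA lie above those in both groups without it.

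To learn how BBR acts on these enzymes in hepatocytes without added lipid, BBR was compared with control. Tat, Hgd and Prodh were lower with BBR, by 1.36-fold, 1.73-fold and 1.29-fold, and no gene of the 9 was higher. The other 6, Hpd, Fah, Sds, Hal, Oat and Got1, did not pass the test. Calls here and below rest on an adjusted p under 0.05, from the quasi-likelihood test in edgeR with adjustment over every tested gene. Among all 12555 genes tested, 27.7% were called in either direction, 13.2% higher and 14.5% lower. The median log2 fold change of the 9 genes was -0.13, beside -0.00085 for all genes tested. Bulk libraries cannot tell fewer cells of a type from less RNA per cell. Markers of several cell types moved in the same libraries. Of the Kupffer cell markers 1 of 10 was called higher (Cd68, from 80.0 to 131 CPM, which carried the higher sum) and 1 lower (Cd5l), of the endothelial markers 3 of 8 higher and none lower (sums of 60.9 to 64 CPM in control and 68.7 to 72.7 in BBR), of the cholangiocyte markers 3 of 4 tested higher and 1 lower (Spp1), and of the hepatocyte markers 1 of 7 higher and 4 lower. Their part in the differences was not tested.

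In lipid-loaded hepatocytes the same question was asked by comparing BBR+OA with OA alone. None of the 9 genes was called in edgeR's quasi-likelihood test or by DESeq2, and 1 of them, Prodh, had an unadjusted p under 0.05. Of all 12278 genes tested, 4.59% were called, 1.95% higher and 2.63% lower, so that a count of 0 among 9 lay close to the background. The log2 fold changes of the 9 genes ran from -0.02 for Hpd to 0.25 for Hal, with a median of 0.062 beside -0.00031 for all genes. Over the 5 marker lists 1 gene was called, a hepatocyte marker that was lower.

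The effect of OA, given with its albumin, was read from OA against control. The paper does not say whether cells without OA received albumin, so effects of OA and of its albumin cannot be told apart. Tat, Fah and Got1 were higher with OA, by 2.09-fold, 1.41-fold and 1.29-fold, and none was called lower. Of 12418 genes tested 42.8% were called, 21.3% higher and 21.5% lower, and the median log2 fold change of the 9 genes was 0.077 beside -0.006 for all genes. With upper-quartile scaling the 2643 higher and 2668 lower calls over all genes became 2077 and 3216, while the same number of the 9 genes was called higher. This comparison shares its control libraries with that of BBR against control. Without control replicate 2 the count of the 9 genes called rose from 3 to 5, with 4 higher and 1 lower. With OA 6 of 10 Kupffer cell markers were called lower and 2 higher (Marco and Adgre1), while their sum, most of it Cd68, was 103 to 118 CPM in both groups. The summed cholangiocyte markers were lower in all OA than in all control libraries through Spp1, with 1 of 4 tested higher and 1 lower, and of the hepatocyte markers 4 of 7 were higher and 2 lower, with a higher sum in all OA libraries. Whether these contribute was not tested.

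The effect of OA was also read in drug-treated cells, from BBR+OA against BBR. Tat, Fah, Prodh and Got1 were higher with OA, by 2.87-fold, 1.47-fold, 1.54-fold and 1.34-fold, and Hpd was lower by 1.21-fold. Over all 12416 genes tested 38.9% were called, 20.1% higher and 18.8% lower. The 9 genes had a median log2 fold change of 0.42, beside -0.0061 for all genes. With upper-quartile scaling 1976 genes were called higher and 2870 lower in place of 2496 and 2330, and the counts of the 9 genes were again 4 and 1. Of the Kupffer cell markers 2 of 10 were called higher (Marco and Adgre1) and 3 lower, with a lower sum in all BBR+OA than in all BBR libraries. The endothelial markers had 2 of 7 tested higher and 3 lower, and the cholangiocyte markers 2 of 4 tested lower with sums of 199 to 241 CPM against 390 to 423. The hepatocyte markers had 4 of 7 higher and none lower, with sums of 48500 to 50500 CPM against 42200 to 43900. The part of these in the differences was not tested.

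The combined treatment was set against control last. Tat, Fah, Prodh and Got1 were higher in BBR+OA, by 2.11-fold, 1.39-fold, 1.19-fold and 1.28-fold, and none was lower. Of 12471 genes tested 43.8% were called, 21.6% higher and 22.2% lower (2688 and 2773 genes, and 2202 and 3242 with upper-quartile scaling). The median of the 9 genes was 0.23, beside -0.0074 for all genes. All 7 hepatocyte markers were called, 4 higher and 3 lower, with sums of 48500 to 50500 CPM against 43400 to 44500 in control. The cholangiocyte markers had 2 of 4 tested higher and 1 lower with sums of 199 to 241 against 592 to 720 CPM, and the Kupffer cell markers 3 of 10 higher and 2 lower; the part of these was not tested.

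Whether the effect of BBR depended on OA was tested as an interaction on all 12 libraries, where a positive value means that the log2 fold change of BBR was higher with OA than without it. Hgd and Prodh had positive interactions that passed the test, and the other 7 genes had none that did. Over 12742 genes 12.2% were called, 6.87% positive and 5.31% negative. The median of the 9 genes was 0.23, beside 0.012 for all genes.

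**Figure D2:**
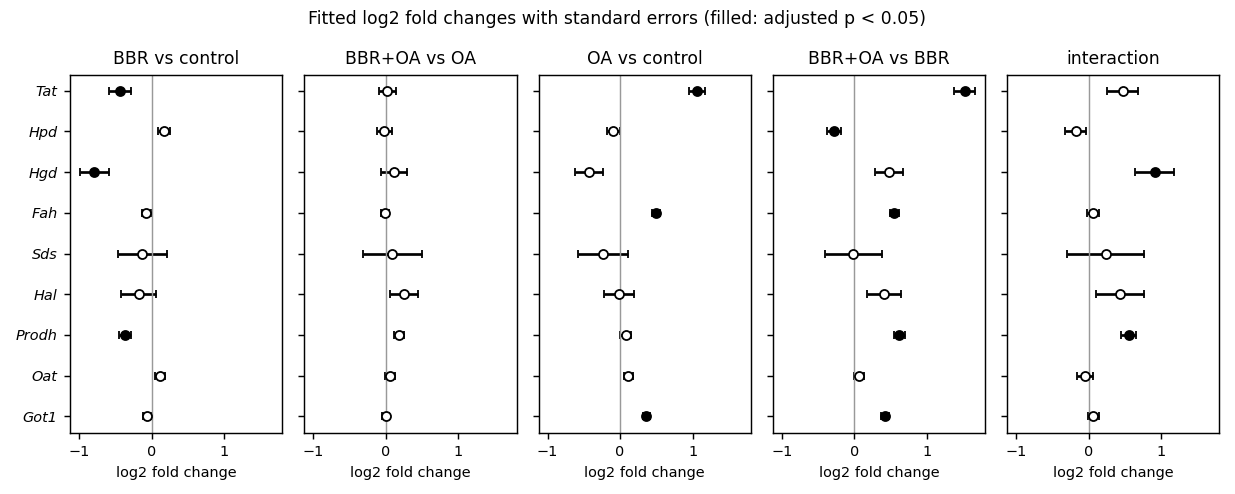
Fitted log2 fold changes (horizontal axes) of the 9 genes in 4 comparisons and in the interaction, with bars of 1 standard error and filled points where the adjusted p was under 0.05. Hgd (-0.79) is the farthest to the left in BBR against control, all points in BBR+OA against OA are open, and Tat is the farthest to the right in OA against control (1.06) and in BBR+OA against BBR (1.52).

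Tat, the enzyme that commits tyrosine to degradation, had the widest range of group means among the 9 genes, 1.54 on the log2 CPM scale. It stood at 7.16, 8.99 and 6.97 CPM in control, at 17.1, 16.6 and 14.4 in OA, at 6.59, 4.36 and 5.75 in BBR and at 13.6, 15.97 and 19.5 in BBR+OA. All 6 libraries with OA were above all 6 without it, and the BBR libraries were below the control libraries without overlap. The difference between OA and control was 1.06 ± 0.11 (log2 fold change ± SE) with an edgeR adjusted p of 3.78e-06. That between BBR+OA and BBR was 1.52 ± 0.15 with an edgeR adjusted p of 2.37e-06, and that between BBR+OA and control 1.08 ± 0.13 with 3.69e-06 by the same test. The rise of Tat with OA was thus found with and without the drug, and it held its call in all 12 alternative settings of each of these comparisons. The fall with BBR alone was smaller, -0.44 ± 0.15, with an edgeR adjusted p of 0.0404, and its call depended on single libraries. The edgeR adjusted p became 0.0522 without control replicate 1, 0.187 without control replicate 2, 0.165 without BBR replicate 2 and 0.0808 without BBR replicate 3, and DESeq2 gave 0.0588 (range over alternatives 0.0142 to 0.187). With OA present the drug changed Tat by 0.02 ± 0.12 (edgeR adjusted p 0.939). The interaction, 0.47 ± 0.21, did not pass the test with an edgeR adjusted p of 0.157, so the effect of BBR on Tat was not shown to differ between the cells with and without OA.

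Hpd catalyzes the step after Tat, from hydroxyphenylpyruvate to homogentisate. It was measured at 21.8, 18.03 and 17.5 CPM in control, 18.3, 18.6 and 16.5 in OA, 21.7, 22.1 and 20.2 in BBR and 20.5, 15.2 and 17.0 in BBR+OA. The groups overlapped in every comparison except BBR against OA, which was not tested. Hpd was lower in BBR+OA than in BBR, with a log2 fold change of -0.28 ± 0.096 (SE, edgeR adjusted p 0.0331), although BBR+OA replicate 1 lay within the range of the BBR libraries. This call was lost when BBR replicate 1 or 2 was left out (edgeR adjusted p 0.0769 and 0.0896) and when BBR+OA replicate 2 or 3 was (0.16 and 0.0982 by edgeR) (range over alternatives 0.00244 to 0.16), and without BBR+OA replicate 2 the log2 fold change was -0.18. In BBR against control Hpd had a log2 fold change of 0.17 ± 0.087 (edgeR adjusted p 0.159), and without control replicate 1 it was called higher, at 0.27 with an edgeR adjusted p of 0.0256 (lowest of the alternatives).

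Hgd opens the aromatic ring of homogentisate and is the enzyme lacking in alkaptonuria. It was found at 4.46, 2.90 and 4.60 CPM in control, 3.12, 2.98 and 2.81 in OA, 2.21, 2.43 and 2.26 in BBR and 3.65, 2.75 and 3.21 in BBR+OA. All BBR libraries lay below all 9 others, and control replicate 2 lay among the libraries with OA. The fall with BBR was -0.79 ± 0.2 (log2 fold change ± SE, edgeR adjusted p 0.00825), the largest among the 9 genes in that comparison, and it kept its call in all 12 alternatives other than a 2-fold minimum, although the highest edgeR adjusted p among them rounded to 0.05. With OA present the change with BBR was 0.11 ± 0.18 (edgeR adjusted p 0.792). The interaction was 0.91 ± 0.27 with an edgeR adjusted p of 0.0332, but it lost its call when any of 9 libraries was left out, with an edgeR adjusted p between 0.0551 and 0.0997, and its log2 value stayed between 0.784 and 1.09 throughout. The libraries were control replicates 1 and 3, OA replicates 2 and 3, all 3 BBR replicates, and BBR+OA replicates 1 and 3. Hgd also had lower means with OA than in control, -0.43 ± 0.19 with an edgeR adjusted p of 0.091, and in BBR+OA than in control, -0.32 ± 0.2 with 0.201 by the same test. Both were called without control replicate 2, at -0.61 (edgeR adjusted p 0.0166) and -0.50 (edgeR adjusted p 0.048). Between BBR and BBR+OA the libraries did not overlap, but the difference of 0.48 ± 0.19 did not pass the test (edgeR adjusted p 0.0593); without BBR+OA replicate 2 it was 0.58 with an edgeR adjusted p of 0.0469.

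Fah, whose loss causes hereditary tyrosinemia, completes the pathway by splitting fumarylacetoacetate into fumarate and acetoacetate. Its levels were 40.1, 40.0 and 38.6 CPM in control, 53.5, 55.9 and 57.3 in OA, 39.4, 33.8 and 38.8 in BBR and 52.3, 57.2 and 55.7 in BBR+OA. The libraries formed a lower set without OA, from 33.8 to 40.1 CPM, and a higher set with OA, from 52.3 to 57.3 CPM, and within each set the groups with and without BBR overlapped. OA raised Fah by 0.50 ± 0.056 against control (log2 fold change ± SE, edgeR adjusted p 6.91e-06) and by 0.55 ± 0.063 in the presence of BBR (edgeR adjusted p 9.12e-06). BBR+OA exceeded control by 0.47 ± 0.054 (edgeR adjusted p 1.98e-06). BBR changed Fah by -0.07 ± 0.064 without OA and by -0.02 ± 0.056 with it, and neither passed the test (edgeR adjusted p 0.445 and 0.905). In tyrosine degradation the transcripts of the first and last enzymes therefore rose with OA in both settings, while neither Hpd nor Hgd was called higher with OA.

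Hal, the first enzyme of histidine breakdown, was a low transcript in these cultures. It was at 2.25, 3.43 and 2.58 CPM in control, 2.95, 3.03 and 2.20 in OA, 3.32, 1.99 and 1.83 in BBR and 3.39, 2.75 and 3.57 in BBR+OA. All 4 groups overlapped, and no comparison passed the test. The largest difference separated BBR+OA from BBR, at a log2 fold change of 0.41 ± 0.23 (SE, edgeR adjusted p 0.182). BBR replicate 1 lay above both other BBR libraries, and without it the difference was 0.76 with an edgeR adjusted p of 0.0213.

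Sds, which deaminates serine to pyruvate, was lower still, between 0.423 and 1.07 CPM over the 12 libraries, or between 8.01 and 19.02 counts. Both extremes of CPM were in BBR+OA. Standard errors of its log2 fold changes were 0.34 to 0.41 in the comparisons of 2 groups, and all adjusted p-values from edgeR were between 0.603 and 0.981, so that differences of the sizes called for Fah or Got1 were not resolvable for Sds at this depth.

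Prodh, the mitochondrial enzyme that oxidizes proline to pyrroline carboxylate, had the interaction of BBR and OA with the lowest adjusted p of the 9 genes. Its levels were 19.5, 16.7 and 18.4 CPM in control, 19.1, 18.9 and 19.5 in OA, 14.5, 14.7 and 13.0 in BBR and 21.4, 22.3 and 21.4 in BBR+OA. All BBR libraries were below the other 9 and all BBR+OA libraries were above the other 9, with control and OA overlapping between them. BBR alone lowered Prodh by -0.37 ± 0.086 (log2 fold change ± SE, edgeR adjusted p 0.00433). With OA the drug gave 0.18 ± 0.069, where the groups did not overlap but the edgeR adjusted p was 0.174 (unadjusted 0.022). The interaction was 0.55 ± 0.1 with an edgeR adjusted p of 0.00165. OA gave 0.08 ± 0.078 without the drug (edgeR adjusted p 0.454) and 0.62 ± 0.076 with it (edgeR adjusted p 1.79e-05). The calls in BBR against control, BBR+OA against BBR and the interaction held in every alternative run other than a 2-fold minimum, including each left-out library, and the interaction stayed between 0.4996 and 0.6076 without any single library. BBR+OA also exceeded control, by 0.25 ± 0.075 (edgeR adjusted p 0.0126), a call lost without control replicate 2, at 0.19 with an edgeR adjusted p of 0.0636 (range over alternatives 0.00587 to 0.0636).

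Oat, which feeds ornithine toward glutamate and proline, varied least of the 9 genes, with a range of group means of 0.174 on the log2 CPM scale. It stood at 53.0, 61.6 and 52.5 CPM in control, 57.3, 61.3 and 61.6 in OA, 57.7, 64.8 and 57.7 in BBR and 56.0, 63.1 and 69.8 in BBR+OA. Control replicate 2 lay above the other control libraries, and every pair of groups overlapped. No comparison of Oat passed the test. The largest difference was 0.17 ± 0.074 in BBR+OA against control (log2 fold change ± SE, edgeR adjusted p 0.0758). Without control replicate 2 Oat was called higher than control with BBR, OA and both, at 0.19, 0.19 and 0.25 with edgeR adjusted p of 0.0488, 0.034 and 0.018. In BBR+OA against control it was also called without BBR+OA replicate 1, at 0.25 with an edgeR adjusted p of 0.0087, and without the filter on low counts, at 0.17 with 0.0199 by the same test.

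Got1, the cytosolic aspartate aminotransferase, was the most abundant of the 9 transcripts. It was measured at 87.1, 80.6 and 86.7 CPM in control, 110.5, 104.4 and 111.6 in OA, 75.2, 80.1 and 87.8 in BBR and 105.7, 106.3 and 114.7 in BBR+OA. All libraries with OA were above all libraries without it, and BBR overlapped with its counterpart in both settings. OA raised Got1 by 0.36 ± 0.052 (log2 fold change ± SE, edgeR adjusted p 6.77e-05) against control and by 0.42 ± 0.057 (edgeR adjusted p 4.54e-05) against BBR. The combined treatment exceeded control by 0.36 ± 0.049, adjusted p 1.79e-05 in edgeR. The calls of Got1 and Fah in these comparisons held in all 12 alternatives of each, apart from a 2-fold minimum, which none of them reached.

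**Figure D3:**
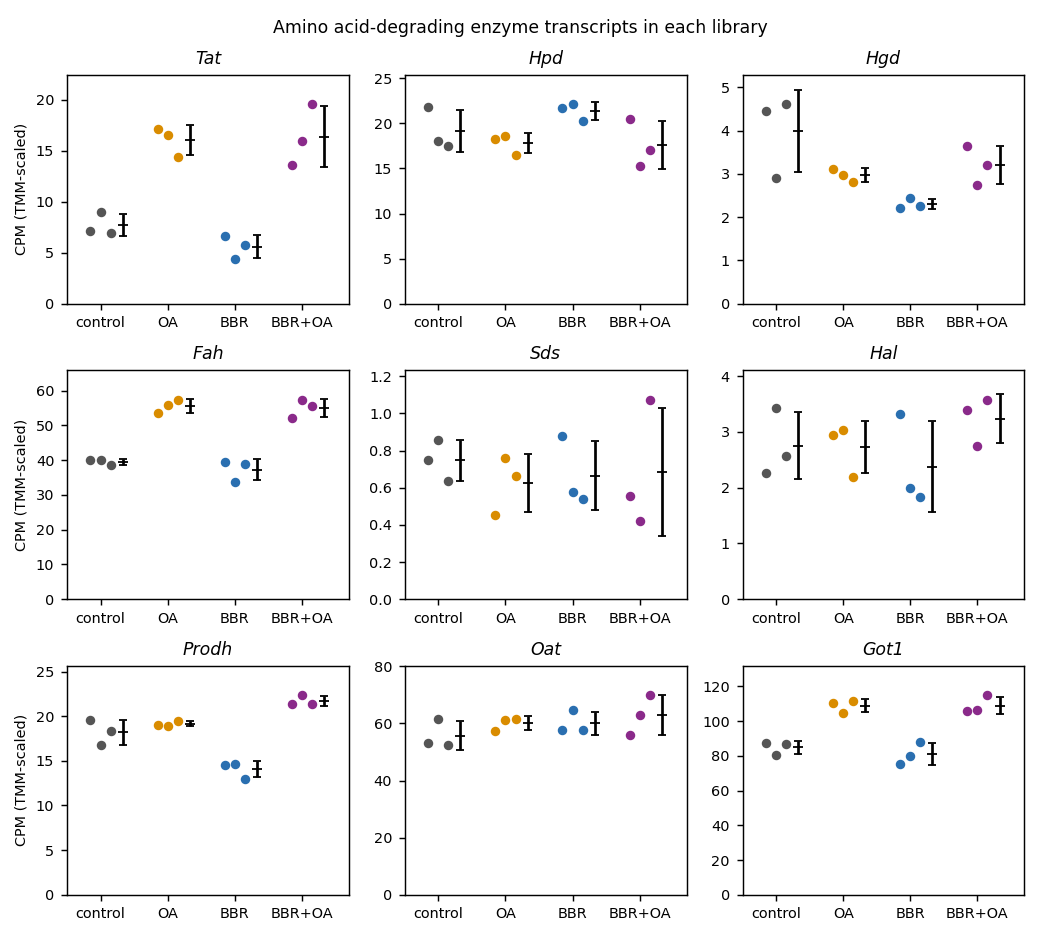
TMM-scaled CPM of the 9 genes, 1 panel per gene with its own linear axis from 0, with 3 points per group and the mean ± SD in black beside them. Tat, Fah and Got1 form a higher set in both groups with OA, Hgd and Prodh are lowest in BBR (2.30 and 14.1 CPM on average), and Prodh is highest in BBR+OA (21.7 CPM).

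Genes with a pattern close to that of the 3 genes with the widest ranges (Tat, Hgd and Prodh) were looked for among 9715 genes with a mean of at least 5 CPM, by the root mean square difference of centred log2 CPM over the 12 libraries. Nearest to Tat were Lbp, the lipopolysaccharide-binding protein, at 0.176, and Pla2g12b, a secreted phospholipase A2-like protein with a role in lipoprotein secretion, at 0.195. Lbp averaged 25.1, 52.5, 16.9 and 49.4 CPM in control, OA, BBR and BBR+OA. Nearest to Prodh were Pafah2, a platelet-activating factor hydrolase, at 0.0716 and the soluble epoxide hydrolase Ephx2 at 0.0737. Ephx2 averaged 59.6, 60.3, 46.1 and 67.5 CPM in the same order, lowest in BBR and highest in BBR+OA as Prodh was. For Hgd, a less abundant gene, the nearest were the replication protein Rpa2 at 0.165 and Abhd14a at 0.173.

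Beyond the 9 genes, 56 further genes of amino acid degradation were examined in 7 lists by substrate (phenylalanine and tyrosine, histidine, serine with threonine and glycine, proline with ornithine and hydroxyproline, transamination of alanine, aspartate and glutamate, branched-chain amino acids, and lysine), with separate lists for the urea cycle, tryptophan degradation, regulators and transporters. The list named transamination also held Glud1, Asrgl1 and Aspg, which are not aminotransferases. All 56 genes were in the files, and 54 or 55 passed the filter on low counts in each comparison.

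With BBR alone, 27 of 54 tested degradation genes were called lower (50.0%) and 3 higher (5.56%), where 14.5% and 13.2% of all genes were, with a median log2 fold change of -0.22. All 3 histidine genes were lower, among them the formiminotransferase Ftcd, from 42.6 to 21.6 CPM (-0.97 ± 0.062, edgeR adjusted p 2.3e-08). In the transamination list 5 of 6 were lower, the alanine aminotransferases Gpt and Gpt2, glutamate dehydrogenase Glud1, and the asparagine-degrading Asrgl1 and Aspg. Gpt2 fell from 186.7 to 95.3 CPM (-0.96 ± 0.07, edgeR adjusted p 9.25e-08). In phenylalanine and tyrosine degradation 3 of 4 were lower. The other lists had 6 of 11 lower and 1 higher (serine, threonine and glycine), 2 of 4 lower (proline), 6 of 21 lower and 2 higher (branched-chain) and 2 of 5 lower (lysine). The largest fall in these 7 lists was that of Agxt2, a mitochondrial alanine-glyoxylate aminotransferase, from 11.2 ± 1.69 to 4.72 ± 1.02 CPM (n = 3), a log2 fold change of -1.21 ± 0.15 with an edgeR adjusted p of 1.61e-05. Opposite to it stood Ppm1k, the phosphatase that activates branched-chain ketoacid dehydrogenase, from 5.56 ± 0.806 to 8.27 ± 0.649 CPM (0.59 ± 0.13, edgeR adjusted p 0.00317). The fall of Tat, Hgd and Prodh was thus measured among many falls in the same pathways. Falls were not confined to these pathways, since 4 of 7 hepatocyte markers were lower and 1 higher in the same comparison.

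In lipid-loaded cells the same 7 lists gave 2 genes higher and 1 lower with BBR of 55 tested (3.64% and 1.82%, beside 1.95% and 2.63% of all genes), with a median of 0.098. The higher genes were Pcca, a propionyl-CoA carboxylase subunit, from 12.7 ± 0.237 to 15.8 ± 0.152 CPM (0.31 ± 0.08, edgeR adjusted p 0.041), and Aldh6a1 of valine degradation, from 21.1 to 25.4 CPM (0.27 ± 0.07, edgeR adjusted p 0.0444). The lower gene was glycine decarboxylase Gldc, from 51.6 ± 1.33 to 37.5 ± 2.0 CPM (-0.46 ± 0.059, edgeR adjusted p 0.000404). Without OA replicate 1 or 2, or without any BBR+OA replicate, only 1 of the lists' genes was called, a lower one.

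The interaction of BBR and OA was positive and passed the test for 23 of 55 degradation genes (41.8%, beside 6.87% of all genes), and negative for none (0 of 55, beside 5.31%), with a median of 0.34 beside 0.012. These values use the same libraries as the comparisons above. Other lists also had more positive interactions than all genes. Of the hepatocyte markers 3 of 7 were positive and 0 negative. Of the regulators 4 of 12 were positive and 0 negative, and of the transporters 4 of 10 were positive and 1 negative. Positive interactions were therefore not particular to the degradation lists. By degradation list the positive interactions were 5 of 6 in transamination, 3 of 4 in phenylalanine and tyrosine and 5 of 11 in serine, threonine and glycine. They were 7 of 22 in the branched-chain list, 2 of 5 in lysine, 1 of 3 in histidine and 0 of 4 in proline degradation. Gpt2 had an interaction of 1.02 ± 0.097 (edgeR adjusted p 5.69e-06) and Glud1 of 0.70 ± 0.075 (edgeR adjusted p 1.77e-05). Bcat2, the farthest point at 2.70 ± 0.77, averaged only 0.152 CPM in BBR, which is within the range of the 3-count floor. Leaving out single libraries gave counts of 16 to 23 genes.

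**Figure D4:**
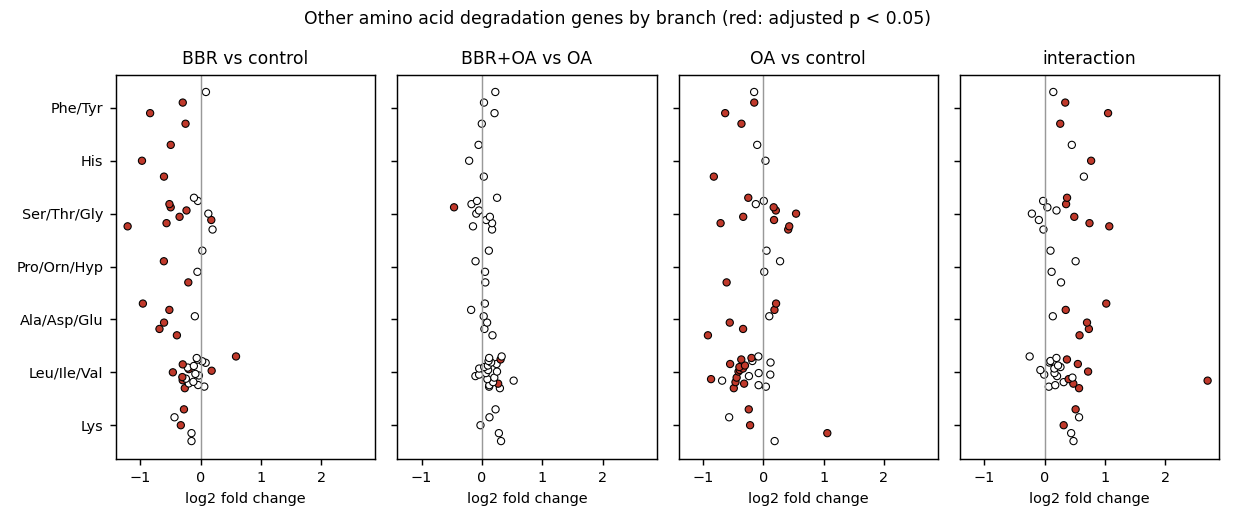
Log2 fold changes (horizontal axes) of the other degradation genes by list, 1 point per tested gene, red where the adjusted p was under 0.05, for 3 comparisons and the interaction. Red points lie mostly left of 0 in BBR against control (27 of 30) and all right of 0 in the interaction (23 of 23), and 3 points are red in BBR+OA against OA; the point at 2.70 is Bcat2, a gene near the count floor in BBR.

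With OA alone, 26 of 55 degradation genes were called lower (47.3%, beside 21.5% of all genes) and 9 higher (16.4%, beside 21.3%), with a median of -0.20; upper-quartile scaling gave 31 lower and 5 higher. Of the 9 enzymes above 3 were higher and none lower in the same comparison, and this difference between the gene sets was not tested. Branched-chain degradation had 13 of 22 lower and none higher, among them Bckdha, the catalytic subunit of branched-chain ketoacid dehydrogenase, from 40.5 ± 1.30 to 22.1 ± 1.54 CPM (-0.87 ± 0.068, edgeR adjusted p 2.21e-07). Phenylalanine and tyrosine degradation had 3 of 4 lower, in the libraries in which Tat and Fah rose. Serine, threonine and glycine degradation had 6 of 11 higher and 3 lower, transamination 2 of 6 higher and 3 lower, lysine 1 of 5 higher and 2 lower, and histidine and proline each 1 lower. The rise in lysine degradation was that of Aass, its first enzyme, from 7.49 ± 1.48 to 15.5 ± 2.66 CPM (1.06 ± 0.15, edgeR adjusted p 5.22e-05).

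In BBR+OA against BBR, 17 of 54 were higher (31.5%, beside 20.1% of all genes) and 6 lower (11.1%, beside 18.8%), with a median of 0.10. Agxt2 rose from 4.72 to 13.6 CPM (1.49 ± 0.13, edgeR adjusted p 8.91e-07) and Bckdha fell from 32.8 to 23.6 CPM (-0.48 ± 0.059, edgeR adjusted p 1.83e-05). In BBR+OA against control, 9 of 55 were higher (16.4%, beside 21.6% of all genes) and 23 lower (41.8%, beside 22.2%). The median was -0.12 beside -0.0074 for all genes, and upper-quartile scaling gave 6 higher and 24 lower.

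**Figure D5:**
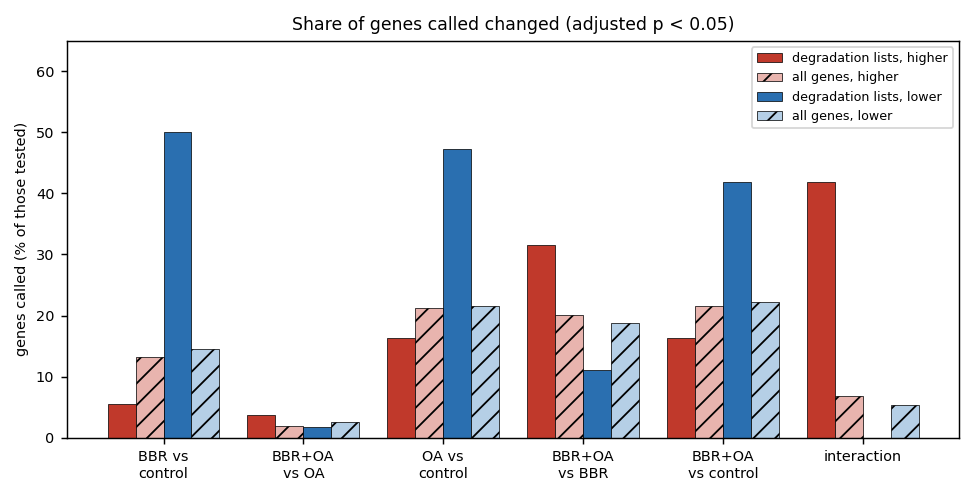
Percent of tested genes called higher (red) and lower (blue) among the 7 degradation lists (solid) and among all genes (hatched) in 5 comparisons and the interaction. The list's share called lower is 50.0% in BBR against control and 1.82% in BBR+OA against OA, and its share with a positive interaction is 41.8%.

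Nitrogen released by these enzymes is disposed of in the urea cycle. Its rate-limiting enzyme Cps1 stood at 17.9 ± 1.49 CPM in control, 178 ± 20.4 in OA, 9.70 ± 2.20 in BBR and 193 ± 12.5 in BBR+OA (n = 3). The libraries with and without OA did not overlap, and the log2 fold change was 3.32 ± 0.085 for OA against control (edgeR adjusted p 2.36e-12) and 4.29 ± 0.097 for BBR+OA against BBR (edgeR adjusted p 1.11e-12). BBR alone lowered Cps1, Ass1 and Nags and raised arginase Arg1, from 9.55 ± 0.968 to 12.4 ± 0.696 CPM (0.39 ± 0.1, edgeR adjusted p 0.00812). Of all genes, 14.5% were lower and 13.2% higher with BBR alone. OA raised 3 of 6 urea cycle genes without BBR and 5 of 6 with it, beside 21.3% and 20.1% of all genes. None was called lower with OA in either setting, beside 21.5% and 18.8%. In the presence of OA none of the 6 was called with BBR, where 4.59% of all genes were. The interaction was positive for 1 of 6 and negative for 1, beside 6.87% and 5.31% of all genes.

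Tryptophan degradation had 5 of 6 genes lower with BBR, beside 14.5% of all genes. With OA 1 of 6 was higher and 3 lower, beside 21.3% and 21.5% of all genes. Its first enzyme Tdo2 averaged 35.2 ± 2.01 CPM in control, 10.8 ± 1.35 in OA, 30.3 ± 2.11 in BBR and 9.09 ± 1.46 in BBR+OA. This was the opposite direction to Tat: Tdo2 fell with OA by -1.70 ± 0.089 against control (edgeR adjusted p 5.36e-09) and by -1.75 ± 0.1 against BBR (edgeR adjusted p 1.25e-08). Afmid, the formamidase of the second step, fell with OA by -1.03 ± 0.097 (edgeR adjusted p 1.24e-06), while Acmsd, which directs the pathway to full oxidation, rose from 14.8 ± 1.98 to 39.7 ± 0.807 CPM (1.43 ± 0.085, edgeR adjusted p 1.52e-08). With BBR alone Acmsd fell to 6.23 ± 0.427 CPM (-1.23 ± 0.12, edgeR adjusted p 1.08e-06).

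Among 12 regulators of the pathway, BBR lowered 4 and raised 1 without OA, and raised 2 with OA, while OA alone raised 5 and lowered 4. Of all genes tested, 14.5% were lower and 13.2% higher with BBR alone. In the presence of OA, 1.95% were higher and 2.63% lower with BBR. With OA alone 21.3% were higher and 21.5% lower. The glucagon receptor Gcgr averaged 48.7 ± 6.19 CPM in control, 19.7 ± 4.27 in OA, 16.8 ± 1.89 in BBR and 14.5 ± 2.15 in BBR+OA. It was lower in each treated group than in control, by -1.53 ± 0.093 with BBR (edgeR adjusted p 1.68e-08), by -1.30 ± 0.12 with OA (edgeR adjusted p 1.13e-06) and by -1.76 ± 0.099 with both (edgeR adjusted p 4.08e-10). Gcgr thus had the direction of Tat with BBR, where the call of Tat depended on single libraries, and the opposite direction with OA. Creb3l3, a liver transcription factor of the fasting response, averaged 50.3 ± 1.94, 85.6 ± 5.41, 90.2 ± 5.0 and 143 ± 5.10 CPM in control, OA, BBR and BBR+OA. BBR raised it by 0.85 ± 0.054 without OA (edgeR adjusted p 2.3e-08) and by 0.74 ± 0.055 with OA (edgeR adjusted p 2.53e-06). Klf15, a transcription factor that promotes amino acid catabolism, was raised by BBR in the presence of OA, from 5.41 ± 1.10 to 8.48 ± 1.32 CPM (0.65 ± 0.16, edgeR adjusted p 0.0311). Of 10 amino acid transporters, 1 was higher and 3 lower with BBR alone, and none was called with BBR in the presence of OA. With OA alone 4 were higher and none lower. In BBR+OA against BBR 7 were higher and none lower, where 20.1% of all genes were higher and 18.8% lower.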

How the data were processed

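RNA sequencing of 12 libraries of primary mouse hepatocytes (control, OA, BBR and BBR+OA, 3 each) was analyzed. Per the labels, poly(A) RNA was fragmented and reverse transcribed from random primers for Illumina sequencing. For each library the authors deposited estimated counts, not all whole, and FPKM values for 22471 features. The submitters' processing notes name mm10; the aligner, the counter and the use of strand are not given in the sources used here. Of the features, 467 had no symbol and stayed in the tests. The deposited estimated counts were rounded to whole numbers. The FPKM values deposited by the authors, scaled by length and depth, were used only to compare levels between genes.

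Each comparison was fitted on its 6 libraries in edgeR 4.0.16 (R 4.3.3) with filterByExpr (minimum count 10), TMM scaling, a two-sided quasi-likelihood F test and Benjamini-Hochberg adjustment over all genes tested; the interaction was fitted on all 12 libraries. SEs were derived from the F statistic. CPM values are TMM-scaled over the 12 libraries. The procedure was tested on simulated counts. Alternatives were RLE and upper-quartile scaling, no filter, DESeq2 1.42.0, a replicate block, a fit on all 12 libraries, a 2-fold minimum and leaving out each library. Depth limits precision through counting error, to which the floor of 3 counts refers. Libraries within a group differed by more than counting noise in every pair.

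The members and lists were chosen with earlier results of these data known. All 9 genes are named. From the lists, the 3 largest rises and falls per comparison with a mean of at least 5 CPM and no overlap were eligible by rule. Ftcd, Gpt, Gpt2, Glud1, Asrgl1, Aspg, Bcat2, Aldh6a1, Ass1, Nags and the markers Cd68, Cd5l, Marco, Adgre1, Spp1, Krt7 and Cftr were named after their values were seen, as was Bckdha in OA against control. Ensembl IDs were matched to GENCODE M21 (99.71% found), and promoters were taken from RefSeq.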

Additional observations from a re-analysis of the deposited data

Results flagged for a closer look

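Of the 9 genes, 2 were called in the interaction, the test of whether the effect of BBR differed between cells with and without OA. It was edgeR's quasi-likelihood test on all 12 libraries. Of all 12742 genes tested 12.2% were called, 6.87% positive and 5.31% negative. For Hgd the log2 fold change of BBR was higher with OA by 0.912 ± 0.27 (SE), with an edgeR adjusted p of 0.0332. It was -0.79 without OA and 0.11 with it. This call was lost when any of 9 libraries was left out, with an edgeR adjusted p of up to 0.0997. For Prodh the difference was 0.553 ± 0.1, with an edgeR adjusted p of 0.00165, from -0.37 without OA to 0.18 with it. The libraries of Prodh in BBR (13.0 to 14.7 CPM) and in BBR+OA (21.4 to 22.3 CPM) lay on opposite sides of all control and OA libraries. The Kupffer cell markers summed to 141 to 183 CPM in BBR and to 103 to 118 CPM in the control libraries, with 1 of 10 called higher (Cd68) and 1 lower, and their part in these differences was not tested.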

How the results depend on the processing

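Of 693 values of single genes under an alternative, 631 kept their direction and side of the threshold, 19 lost a call, 12 gained one and 31 reversed. Of 17 calls, 13 held in every alternative other than a 2-fold minimum and none reversed; the 4 that did not are Tat in BBR against control, Hpd in BBR+OA against BBR, Prodh in BBR+OA against control and the interaction of Hgd. A 2-fold minimum left, of the 9 genes, 0 in BBR against control, 1 each in OA against control, BBR+OA against BBR and BBR+OA against control, and 0 in the interaction, and of the degradation lists 1, 0, 1, 3, 1 and 4 in BBR against control, BBR+OA against OA, OA against control, BBR+OA against BBR, BBR+OA against control and the interaction. In BBR+OA against OA the lists' count of 3 became 6 without a filter, 1 with DESeq2 and 5 in the fit on all libraries. Without single libraries it was 1 to 4, the 9 genes' count was 3 to 5 in OA against control and 1 to 2 in the interaction, and it was 0 throughout in BBR+OA against OA. Reversals were all of values without a call: Got1 in BBR+OA against OA (0.0013 in the fit on all libraries) and Sds in BBR+OA against BBR (0.013 with DESeq2), and, without single libraries, Hal (-0.5187 to 0.006418) and Sds (-0.4033 to 0.01187) in BBR against control, Tat (-0.1144 to 0.1422), Hpd (-0.1484 to 0.07848), Fah (-0.04542 to 0.01974), Sds (-0.3494 to 0.3428), Oat (-0.01401 to 0.1408) and Got1 (-0.0374 to 0.02119) in BBR+OA against OA, Hpd (-0.1552 to 0.01014) and Hal (-0.1295 to 0.1694) in OA against control, Sds (-0.4572 to 0.2637) and Oat (-0.01511 to 0.144) in BBR+OA against BBR, Sds (-0.5965 to 0.1001) in BBR+OA against control, and Oat (-0.1427 to 0.01659) and Sds (-0.231 to 0.5106) in the interaction. The causes were not tested. Replicate numbers are shared by the groups, but same-numbered libraries deviated together only weakly (correlations -0.027 to 0.16), so they were not taken as pairs. With the number as a replicate block, more genes were called over all genes in every comparison. In BBR+OA against OA 578 were higher and 755 lower, in place of 240 and 323, and the lists' count was 8. Oat was also called with the block in OA against control (0.12, edgeR adjusted p 0.0375) and BBR+OA against control (0.17, edgeR adjusted p 0.00733). No other call of the 9 genes changed.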
